A study of Mus musculus with 6 samples.

Results

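The genes described here encode the standard proteasome, with the factors that assemble and regulate it. They were chosen by name: every gene whose single annotated symbol starts with Psma, Psmb, Psmc, Psmd, Psme, Psmf or Psmg followed by a digit, without the 5 interferon-inducible genes Psmb8, Psmb9, Psmb10, Psme1 and Psme2. This gave 45 of the 19938 named genes on the array, of which 44 were bright enough to test. Their transcript levels were measured in cultured fibroblasts of the mouse embryo (MEFs), a mixture of mesenchymal cells, on 3 Affymetrix arrays from Rb1+/+ and 3 from Rb1L/L cultures. All 6 cultures came from E13.5 embryos, were expanded to passage 4, received no treatment named in the labels and were proliferating when RNA was taken; no mouse strain is named in the labels. Rb1 encodes the retinoblastoma protein pRb, and the L allele is known to alter the cleft of pRb that binds proteins with an LXCXE motif. The allele is present in every cell of the culture, and each genotype is represented by cultures 1, 2 and 3, described as MEF pairs.

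The proteasome is the barrel-shaped protease that degrades ubiquitin-tagged proteins, cyclins among them. Its core particle is a stack of rings: outer alpha rings gate the barrel, and inner beta rings hold the active sites. A regulatory particle sits on the end of the barrel; its base carries a ring of ATPases that unfold substrates, and its lid removes the ubiquitin chain. Genes of the subunits are known to be expressed together, and the transcription factor NRF1 (gene Nfe2l1) raises them when proteasome activity falls.

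Proteasome genes rose in part: 14 of the 44 tested members were higher in Rb1L/L cultures and 0 were lower (limma, adjusted p under 0.05 over all 15462 tested genes), against 7.1% of all tested genes higher and 5.08% lower. With the replicate number as a block the same 14 members were called, against 7.99% of all tested genes higher and 6.45% lower. At an unadjusted p under 0.05, 22 members were higher and 3 lower, against 14.4% of all tested genes higher and 14.4% lower. Of the 14 called, 13 encode subunits of the particle itself, with log2 fold changes from 0.25 (Psmb1) to 0.76 (Psmb4). The other is Psmc3ip, which the name rule took in but which is no proteasome subunit. The median log2 fold change was 0.15 over the members and -0.02 over all tested genes. The groups did not overlap, with Rb1L/L higher, for 24 of the 44 members (16.2% of all tested genes) and, with Rb1L/L lower, for 7 (18.3% of all tested genes). Among the members the log2 fold change ran from -0.25 (Psmg2) to 0.76, with an SD of 0.25, beside an SD of 0.22 over all tested genes.

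With fewer arrays fewer genes passed, members among them. Leaving out Rb1L/L culture 1 left 8 of the 14 called and 628 of all genes in place of 1883, and leaving out Rb1L/L culture 2 left 9 and 622. The changes of the members that missed the threshold moved little: without Rb1L/L culture 1, Psma6 was at 0.52 in place of 0.56, Psmc1 at 0.41 in place of 0.44, Psmc5 at 0.34 in place of 0.37 and Psmc4 at 0.34 in place of 0.35. Without both cultures numbered 1, none of the 14 passed (adjusted p = 0.0613 to 0.176), with changes between 0.24 and 0.74 on the log2 scale. Their sign could not change, since the groups of all 14 did not overlap on the full set of arrays. In that fit 92 of all genes passed. Without both cultures numbered 2, 6 of the 14 passed, and without both numbered 3, 10.

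**Figure D1:**
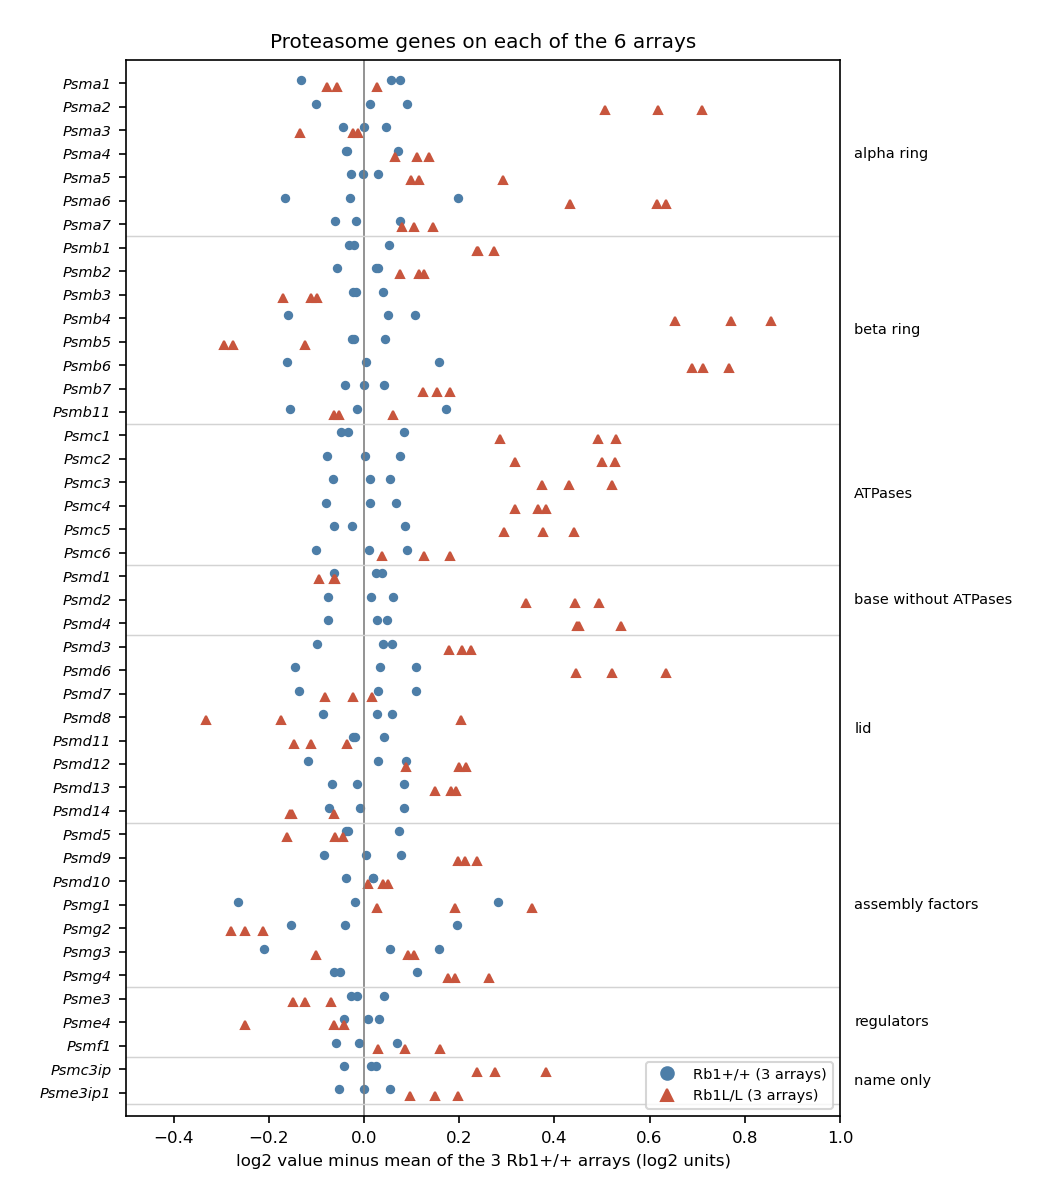
Each row is 1 of the 44 tested genes, grouped by class; the x axis is the log2 value of each array minus the mean of the 3 Rb1+/+ arrays. The triangles (Rb1L/L) lie clear of the circles (Rb1+/+) for Psma2, Psmb4, Psmb6 and the ATPases other than Psmc6, and mix with them or lie to their left for Psmb5, Psmd1 and Psmd14.

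In the alpha ring, 2 of 7 tested genes rose (28.6%), against 7.1% of all tested genes called higher. Psma2 measured log2 9.30, 9.38 and 9.19 in Rb1+/+ cultures 1 to 3 and 10.00, 9.91 and 9.80 in Rb1L/L cultures 1 to 3. Every Rb1L/L culture was above every Rb1+/+ culture, and the change was 1.53-fold (log2 0.61 ± 0.08 SE, limma adjusted p = 0.00428). Psma6 measured 10.85, 11.08 and 10.71 against 11.51, 11.49 and 11.31, and rose by 0.56 ± 0.10 (SE; adjusted p = 0.0138). Its groups were apart as well, with Rb1+/+ culture 2 nearest to the others; it missed the threshold without Rb1L/L culture 1 (adjusted p = 0.0539) or 2 (adjusted p = 0.0516).

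The other 5 tested alpha genes did not pass. Psma5 (0.17, 95% interval 0.01 to 0.32), Psma7 (0.11) and Psma4 (0.10) had changes above 0. Psma1 (-0.04, interval -0.20 to 0.13) and Psma3 (-0.06, interval -0.20 to 0.08) lay near 0. The intervals of these last members end well below the change of Psma2, a subunit of the same ring. Psma8, the alpha subunit of the testis proteasome, measured 4.65 ± 0.21 (SD, n = 3) in Rb1+/+ and 4.65 ± 0.08 in Rb1L/L cultures. That is below log2 5.08, the limit set from olfactory receptor genes, so it was not tested.

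The beta ring held both the largest rise and the member nearest to a call in the other direction. Psmb4, a subunit with no active site, measured 11.13, 11.19 and 10.92 in Rb1+/+ and 11.93, 11.85 and 11.73 in Rb1L/L cultures, 1.69-fold higher (log2 0.76 ± 0.09 SE, adjusted p = 0.00326). Psmb6, which carries the caspase-like active site, measured 10.08, 10.23 and 9.91 against 10.84, 10.76 and 10.78, and was 1.65-fold higher (0.72 ± 0.08, adjusted p = 0.00345). For both genes the lowest Rb1L/L culture stood more than 0.5 above the highest Rb1+/+ culture. Psmb1 rose by 0.25 ± 0.05 (SE; adjusted p = 0.0251), from 9.77, 9.84 and 9.76 to 10.03, 10.07 and 10.03. Its replicates lay close together, but it passed in only 1 of the 6 fits that leave out 1 array, the one without Rb1+/+ culture 2, and in the others its adjusted p was 0.0567 to 0.0877.

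The other active-site subunits, Psmb5 and Psmb7, were not called. Psmb5, which carries the chymotrypsin-like site that proteasome inhibitor drugs bind, measured 12.41, 12.34 and 12.34 in Rb1+/+ and 12.09, 12.07 and 12.24 in Rb1L/L cultures. The groups did not overlap and the difference was -0.23 ± 0.07 (SE), just short of the threshold (adjusted p = 0.0546); it passed with array weights (0.0415), with a stricter filter (0.0408), with trended variances (0.0199) and without Rb1L/L culture 3 (0.0425). Psmb7, with the trypsin-like site, was higher in every Rb1L/L culture than in any Rb1+/+ culture. Its change was 0.15 (interval 0.03 to 0.28) and did not pass (adjusted p = 0.108). Psmb2 (0.11) and Psmb3 (-0.13, adjusted p = 0.171, or 0.0473 with trended variances) did not pass either, and Psmb11, the thymus-specific subunit, was at 5.74 ± 0.16 and 5.72 ± 0.07 (SD, n = 3), a difference of -0.02 that was 0.00 after median centring.

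The stretches just before the annotated starts of Psmb6 and Psmb5 are shown because both genes encode active sites of one ring. Both stretches hold the antioxidant response element core TGACNNNGC, the site type bound by NRF1. Each is the 100 bases before the start on the gene's own strand (RefSeq, GRCm38.p6), with the match in capitals; Psmb6 lies at chr11:70525257-70525356 on the plus strand and Psmb5 at chr14:54617996-54618095 on the minus strand.
Psmb6: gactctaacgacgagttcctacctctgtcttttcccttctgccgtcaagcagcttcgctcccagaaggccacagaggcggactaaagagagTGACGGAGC
Psmb5: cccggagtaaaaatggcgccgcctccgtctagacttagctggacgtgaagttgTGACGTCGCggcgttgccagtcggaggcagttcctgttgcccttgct
The match begins 9 bases before the start in Psmb6 and 47 bases before it in Psmb5. This core was in 15% of the members' promoter windows and in 12.4% of all windows. Psmb5 was not called, and any part of the site in either change was not tested.

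**Figure D2:**
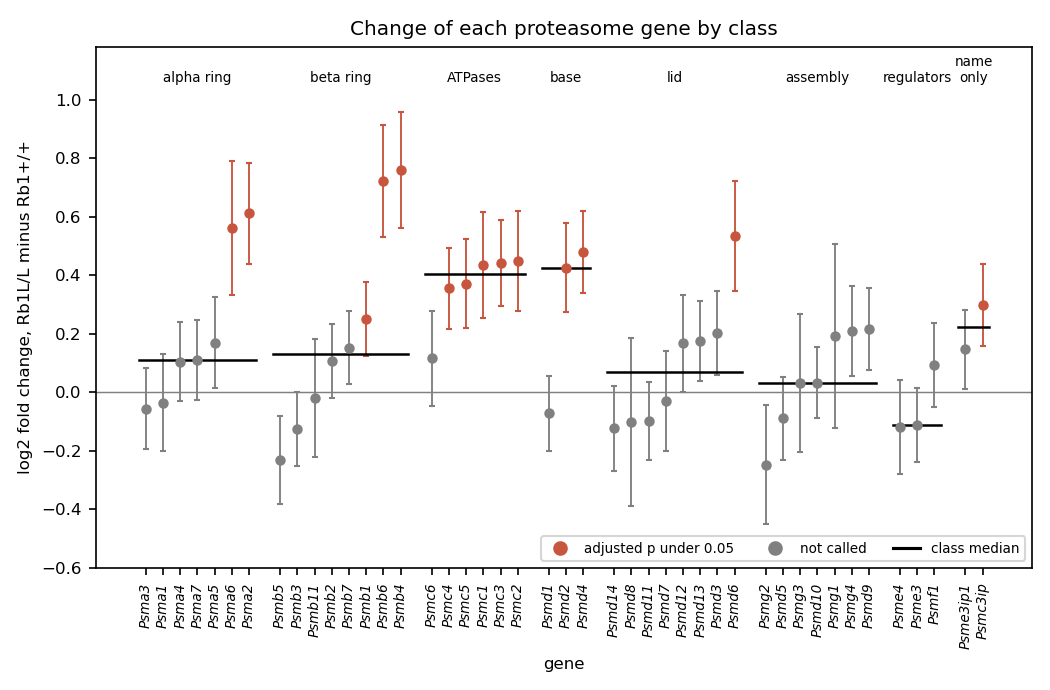
Each point is the log2 fold change of 1 gene (y axis, Rb1L/L minus Rb1+/+) with its 95% interval from the limma fit; genes stand on the x axis by class, and black bars are class medians. The ATPases (median 0.40) and the other base members (0.43) have the highest medians, and the assembly factors (0.03) and regulators (-0.11) hold no called gene. In classes this small that is near the share over all tested genes (7.1% higher, 5.08% lower).

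The ATPases of the base were the class with the largest share of calls, 5 of 6 (83.3%), against 7.1% of all tested genes called higher. They form a ring of 6 different subunits that grips and unfolds the substrate. Psmc3 measured 9.51, 9.56 and 9.44 in Rb1+/+ and 10.02, 9.93 and 9.88 in Rb1L/L cultures, a rise of 0.44 ± 0.06 (SE; adjusted p = 0.00679). Psmc2 measured 9.25, 9.40 and 9.33 against 9.83, 9.85 and 9.64 (0.45 ± 0.07, adjusted p = 0.0111). In both, no culture of one genotype reached the range of the other, and both passed without any single array. Psmc1 rose by 0.44 ± 0.08 (SE; adjusted p = 0.0145), Psmc5 by 0.37 ± 0.07 (adjusted p = 0.0139) and Psmc4 by 0.35 ± 0.06 (adjusted p = 0.0117), each with groups that did not overlap. These 3 missed the threshold without Rb1L/L culture 1 (adjusted p = 0.0566, 0.0562 and 0.0512), and Psmc1 and Psmc5 also without Rb1L/L culture 2 (0.0540 and 0.0517). Psmc6 was the exception: its groups overlapped, at 10.10, 10.29 and 10.21 against 10.38, 10.32 and 10.24, and its change was 0.12 (interval -0.05 to 0.28, adjusted p = 0.322). The class median of 0.40 was made up of similar changes, from 0.35 to 0.45 in the 5 called genes, and lay at 0.47, 0.40 and 0.31 in Rb1L/L cultures 1, 2 and 3 taken singly.

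Of the 3 members in the base that are not ATPases, 2 rose (66.7%), against 7.1% of all tested genes called higher. A class this small does not allow a finer comparison. Psmd4, a receptor for ubiquitin chains, measured 9.01, 9.03 and 8.91 in Rb1+/+ and 9.52, 9.43 and 9.43 in Rb1L/L cultures (0.48 ± 0.06 SE, adjusted p = 0.00458). Psmd2, a scaffold on which shuttle factors dock, measured 11.52, 11.47 and 11.38 against 11.95, 11.90 and 11.80 (0.43 ± 0.07, adjusted p = 0.00844). Both were higher in every Rb1L/L culture and passed without any single array. Psmd1, the other large scaffold of the base, measured 11.55, 11.45 and 11.54 against 11.45, 11.42 and 11.45, a difference of -0.07 (interval -0.20 to 0.06).

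In the lid 1 of the 8 members rose (12.5%), a count near the 7.1% of all tested genes called higher. Sem1, a lid subunit outside the name rule, is described with the cofactors. Psmd6 measured 9.68, 9.86 and 9.93 in Rb1+/+ and 10.35, 10.46 and 10.27 in Rb1L/L cultures, 1.45-fold higher (log2 0.53 ± 0.08 SE, adjusted p = 0.00842). The next largest change among the lid members was 0.20. Psmd14, the enzyme that cuts the ubiquitin chain off the substrate, measured 11.48, 11.63 and 11.54 against 11.49, 11.40 and 11.40, with overlapping groups and a difference of -0.12 (interval -0.27 to 0.02, adjusted p = 0.242). Psmd7, which pairs with Psmd14, had a change of -0.03 (interval -0.20 to 0.14). The scaffold subunits Psmd3 (0.20, adjusted p = 0.0703, or 0.0460 with trended variances), Psmd13 (0.17), Psmd12 (0.17), Psmd11 (-0.10) and Psmd8 (-0.10) did not pass. Psmd8 was the most variable of them: the Rb1L/L cultures read 11.25, 11.09 and 11.62, so that culture 3 lay above all Rb1+/+ cultures and the other two below them.

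None of the 7 assembly factors passed, and neither did the 3 regulators. Over all tested genes 7.1% were higher and 5.08% lower, so no call in classes this small is near that share. At an unadjusted p under 0.05, Psmd9 and Psmg4 were higher and Psmg2 was lower. Psmd9, a chaperone of the ATPase ring, measured 8.11, 7.95 and 8.03 in Rb1+/+ and 8.24, 8.23 and 8.27 in Rb1L/L cultures (0.22 ± 0.06 SE, adjusted p = 0.0540). It had no overlap between the groups and passed after median centring (adjusted p = 0.0442), with a stricter filter (0.0393) and with array weights (0.0459). Psmd5 (-0.09) and Psmd10 (0.03), the other chaperones of the base, did not pass. Psmg1 and Psmg2 encode partners of one chaperone that starts the alpha ring: Psmg1 had a change of 0.19 with a wide interval (-0.12 to 0.51), and Psmg2, at 9.14, 9.26 and 9.49 against 9.04, 9.02 and 9.08, one of -0.25 (adjusted p = 0.108). Psmg3 (0.03) and Psmg4 (0.21, adjusted p = 0.0786, or 0.0466 without Rb1+/+ culture 2) form the second such chaperone. Among the regulators, Psme3, a nuclear activator of the core particle, had a change of -0.11, Psme4, a large activator, one of -0.12, and Psmf1, known as an inhibitor of the core particle, one of 0.09.

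The name rule also took in 2 genes that are no proteasome genes. Psmc3ip, a partner of the recombinases of meiosis and DNA repair, measured 6.69, 6.62 and 6.68 in Rb1+/+ and 6.90, 7.04 and 6.94 in Rb1L/L cultures (0.30 ± 0.06 SE, adjusted p = 0.0206). It passed only in the fit without Rb1L/L culture 3 among those that leave out 1 array; in the other 5 its adjusted p was 0.0509 to 0.0744. Psme3ip1, whose product binds Psme3, had a change of 0.15 (adjusted p = 0.141). Without these 2 genes, 13 of 42 tested members were called (31%), with a median of 0.13.

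Genes that rose and genes that did not were found at most array signals. A signal depends on the probes of a cluster as well as on the transcript, so it does not rank the genes. Of the 13 members with a mean above log2 11, 3 were called higher (Psmb4, Psmd2 and Psma6) and the median change was -0.06. Of the 11 members between log2 9 and 10, 5 were, with a median of 0.17; among all tested genes of that range 10.8% were called higher, with a median of -0.0053. Among all tested genes above log2 11, 6.85% were called higher, with a median of -0.04. Over the 44 members the signal and the log2 fold change had a Pearson r of -0.11 and a Spearman rho of -0.27, given as a description, since the members share the same 6 arrays.

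The members Psma3, Psma5, Psmb3, Psmc1 and Psmd2 were measured by more than 1 transcript cluster, and the brightest was used. Cluster numbers run along the chromosomes, and for each of these genes 1 cluster lies among those of the gene's own chromosome and the others among those of other chromosomes; signal from the gene and from a copy elsewhere cannot be told apart. For Psma3 the brightest cluster lies among those of chromosome 6 while the gene is on chromosome 12; its clusters gave -0.06, -0.03 and -0.09. The clusters of Psmc1 gave 0.44 and 0.39, those of Psmd2 0.43 and 0.39, and those of Psmb3 -0.13 and -0.16. The values of Psma5 lay furthest apart, 0.17 for the cluster used and 0.32 for the other, and with the mean of both it passed (0.24, adjusted p = 0.0297).

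**Figure D3:**
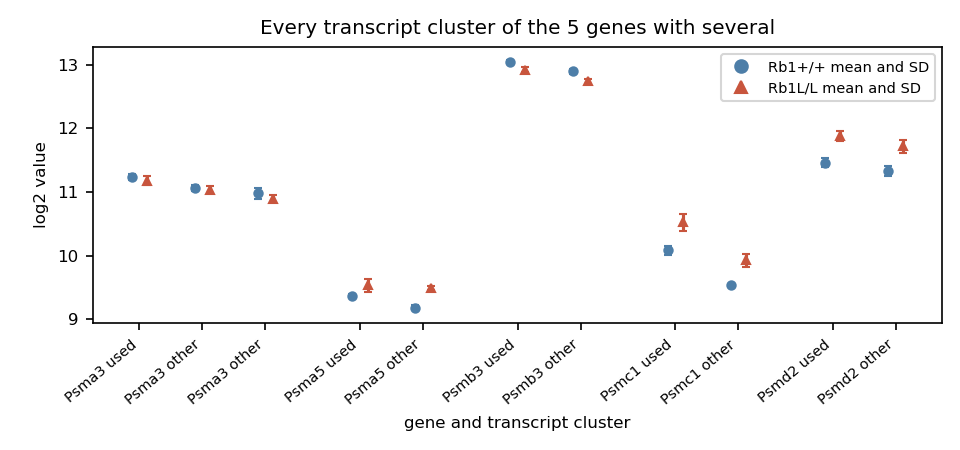
Mean and SD (n = 3) of the log2 values (y axis) in Rb1+/+ (circles) and Rb1L/L (triangles) for every transcript cluster of the 5 genes with several (x axis). Clusters of one gene differ in signal but have differences of the same sign, above 0 for Psma5, Psmc1 and Psmd2 and below 0 for Psma3 and Psmb3.

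The interferon-inducible genes, left out by the name rule, encode subunits that replace standard ones in the immunoproteasome and an activator. Of these 5 genes 3 rose, against 7.1% of all tested genes higher. Psmb8, which takes the place of Psmb5, measured 5.39, 5.71 and 5.62 in Rb1+/+ and 6.46, 7.41 and 6.91 in Rb1L/L cultures (1.35 ± 0.21 SE, adjusted p = 0.00809), beside the -0.23 of Psmb5. Psmb9 replaces Psmb6 and had a change of 0.25 (adjusted p = 0.124) beside 0.72; Psmb10 replaces Psmb7 and had 0.07 (adjusted p = 0.738) beside 0.15. Among the activators, Psme2 (1.19) and Psme1 (0.42) rose while their relative Psme3 was at -0.11. Psme1 missed the threshold without both cultures numbered 1 (adjusted p = 0.0785) or 3 (0.0535). Psmb8 missed it without both numbered 3 (adjusted p = 0.0688), and its mean of log2 6.25 was too low for the stricter filter. The difference between the inducible and the standard genes was not tested.

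**Figure D4:**
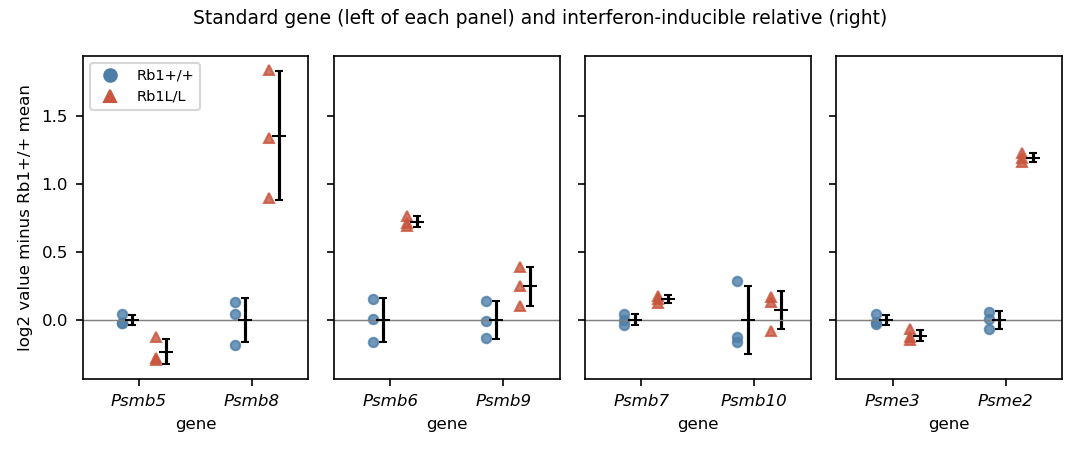
Log2 values of each array minus the Rb1+/+ mean (y axis) for a standard gene and an interferon-inducible relative in each panel; circles are Rb1+/+, triangles Rb1L/L, and black bars the mean and SD (n = 3). Psmb8 and Psme2 lie more than 0.8 above their Rb1+/+ mean in every Rb1L/L culture while Psmb5 and Psme3 lie below theirs, and Psmb6 rose by 0.72 beside 0.25 for Psmb9.

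Genes that work with the proteasome but lie outside the name rule were taken from lists of cofactors, NRF1 pathway genes and ubiquitin genes. Of 10 tested cofactors, 2 were higher and 1 lower, with a median of -0.0047. Over all tested genes 7.1% were higher and 5.08% lower, and a list this short does not allow a finer comparison. Sem1, the small subunit that completes the lid, measured 8.32, 8.57 and 8.18 in Rb1+/+ and 9.22, 9.22 and 9.13 in Rb1L/L cultures, a rise of 0.83 ± 0.10 (SE; adjusted p = 0.0033). That was more than any member changed, and it passed without any single array. Uchl5, a deubiquitinase of the base, rose by 0.31 ± 0.06 (adjusted p = 0.0205; 0.0579 to 0.0742 without Rb1+/+ culture 1 or 3 or Rb1L/L culture 1 or 2). Zfand2a, a stress-induced proteasome-binding protein, fell by 0.21 (adjusted p = 0.0459, but 0.0556 with the replicate block, 0.0605 after median centring, and 0.0533 to 0.140 without any 1 array). Pomp, which closes the assembly of the core particle, was at -0.02, and the deubiquitinase Usp14 at 0.10. Adrm1 and Paaf1, also on the cofactor list, were not analysed here.

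The NRF1 list held the factor itself, its processing enzymes and the p97 segregase with its cofactors. Of its 10 tested genes 0 rose and 1 fell, with a median of 0.01. Ddi2, also on the NRF1 list, was not analysed here. With 7.1% of all tested genes higher and 5.08% lower, counts this small do not set the list apart. Nfe2l1 measured 11.208, 11.004 and 11.021 in Rb1+/+ and 10.885, 10.880 and 10.806 in Rb1L/L cultures, so the groups did not overlap, but the difference of -0.22 ± 0.07 (SE) did not pass (adjusted p = 0.0784, or 0.0454 with trended variances). Ngly1, the enzyme that strips sugars from NRF1 during its activation, fell by 0.35 ± 0.07 (adjusted p = 0.0239); it passed in 2 of the 6 fits without 1 array, and missed the threshold without Rb1+/+ culture 1 or 3 or Rb1L/L culture 1 or 3 (adjusted p = 0.0512 to 0.0728). Vcp, which encodes p97, was at 0.17 (adjusted p = 0.126) and Nfe2l2 at 0.01. Among 7 tested genes of ubiquitin supply and shuttling, 0 rose and 1 fell, again too few to differ from the share over all tested genes. Uba6, an E1 enzyme that activates ubiquitin, fell by 0.24 (adjusted p = 0.0319, and 0.0559 to 0.110 without any 1 array). The median was -0.03 and Ubqln2 was at -0.17 (adjusted p = 0.126). The other 7 genes of that list, the polyubiquitin genes among them, were not analysed here.

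Since the series concerns divergently paired genes, the members' head-to-head neighbours were looked up in RefSeq promoter windows, which covered 37 of the 45 members; 6 had an opposite-strand neighbour whose start lay at most 1000 bases upstream. Psmc5 and Ftsj3, which encodes a ribosomal RNA methyltransferase of the nucleolus, were the pair in which both genes rose, by 0.37 and by 0.45 ± 0.08 (SE; adjusted p = 0.0146, but 0.0511 to 0.0543 without Rb1+/+ culture 1 or Rb1L/L culture 1 or 2). Psma2 rose by 0.61 beside Mrpl32, a mitochondrial ribosomal protein gene, at 0.14 (adjusted p = 0.171). Psmd10 was at 0.03 while its neighbour Atg4a, a protease of autophagy, fell by 0.38 (adjusted p = 0.0231; among the fits without 1 array it passed only without Rb1+/+ culture 2, and the others gave 0.0599 to 0.0748). The remaining pairs had no call: Psmd13 with Sirt3 at 0.00, Psma7 with Ss18l1 at -0.08 and Psme3ip1 with Rspry1 at -0.01.

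The whole stretch between the starts is shown for the 2 pairs whose proteasome gene rose, on the strand of the proteasome gene, with a CCAAT box in capitals where present (RefSeq, GRCm38.p6). The starts of Psmc5 and Ftsj3 are 100 bases apart (chr11:106256085-106256184, plus strand) and those of Psma2 and Mrpl32 204 bases apart (chr13:14613038-14613241, plus strand).
Psmc5: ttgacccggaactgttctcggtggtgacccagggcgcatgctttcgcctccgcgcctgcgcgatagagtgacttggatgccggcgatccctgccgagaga
Psma2: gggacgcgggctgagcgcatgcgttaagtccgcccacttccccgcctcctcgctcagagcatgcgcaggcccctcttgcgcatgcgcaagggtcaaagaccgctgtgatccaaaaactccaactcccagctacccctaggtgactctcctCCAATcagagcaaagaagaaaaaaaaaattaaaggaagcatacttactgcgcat

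Fixed motifs were then counted on both strands in the members' 40 windows, each from 250 bases before to 50 after a start, and in all 32851 windows of the same length. The antioxidant response element core TGACNNNGC was in 6 of the 40 (15%, against 12.4% of all windows), and of those genes Psmb6 alone was called. CCAAT, the NF-Y box, was in 15 (37.5% against 37.4%), which included 6 of the 14 windows of called genes. The cell cycle homology region TTTGAA was in 4 (10% against 17.9%), none of a called gene. The E2F site, searched as TTTCCCGC or TTTGGCGC, was in 2 (5% against 1.56%), those of the ATPase genes Psmc4 and Psmc2, which both rose. A count of 2 windows does not allow a finer comparison, and any part of the site in these changes was not tested. The Psmc4 stretch is shown for this site, in capitals, which begins 77 bases before the start (100 bases, chr7:28050093-28050192, minus strand); in Psmc2 the match lies after the start.
Psmc4: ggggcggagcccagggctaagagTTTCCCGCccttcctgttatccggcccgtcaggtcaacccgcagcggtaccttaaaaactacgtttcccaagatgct
A match is a run of letters and does not show that a factor binds there.

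Over the whole series 1883 genes changed, 1098 higher and 785 lower, and Pearson correlations between arrays were 0.9948 to 0.996 for one genotype and 0.9873 to 0.9927 for different ones. Rb1 itself was at 8.83 ± 0.19 in Rb1+/+ and 8.93 ± 0.07 in Rb1L/L cultures (SD, n = 3), and since the allele alters the protein, this level does not check the labels. Cultures numbered 1 of both genotypes were of male type by Xist and Eif2s3y and the others of female type, so sex and number 1 cannot be told apart. All 10 fibroblast markers were above the detection limit; 2 of them, Col3a1 and Lum, were lower in Rb1L/L cultures (3 with the replicate block) and their summed linear signal ranged from 41680 to 43709 in Rb1+/+ and from 38349 to 39541 in Rb1L/L cultures. Of 11 macrophage and blood markers, 3 rose (Adgre1, Cd14 and C1qa) and Cx3cr1 fell (summed signal 2266 to 3725 against 2741 to 3958), and of 6 neural markers 3 fell (Tubb3, Fabp7 and Ncam1; 5449 to 5849 against 4529 to 4663). Endothelial (1 of 5 higher), epithelial and muscle markers (none of 5 and of 4 called) had overlapping sums, with Pecam1, Epcam and Myh3 below the limit. Beside these counts, 7.1% of all tested genes were higher and 5.08% lower. The part of these markers in the proteasome result was not tested, and in such mixed cultures fewer cells of a type and less RNA per cell cannot be told apart.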

How the data were processed

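The authors deposited log2 values for 35556 transcript clusters on 6 arrays; RMA and Partek are named in the submitters' processing notes, with no versions. RMA forces arrays onto one distribution, so a change shared by most genes is lost, and large folds are compressed. With 3 arrays a group, their number sets the precision.

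The 21789 clusters with 1 gene symbol were used (1621 carried several and 12146 were not named in the platform annotation); 21698 were found in the reference table (GRCm38.p6), and symbols were updated through it. They stood for 19938 genes, with the brightest cluster for each of the 999 genes that had several. Genes with a mean above log2 5.08, the level that 90% of 1194 olfactory and vomeronasal receptor genes stay under, were tested (15462). For the array annotation no build is stated; printed coordinates are those of the reference sequences.

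The genotype difference was fitted in R 4.3.3 by limma 3.58.1 (lmFit, then eBayes) without a block, and p-values were adjusted by Benjamini and Hochberg's method across the 15462 genes, with a threshold of 0.05; changes are Rb1L/L minus Rb1+/+ with moderated SE and 95% intervals. Replicate numbers were read as pairs, since the design text speaks of pairs. After subtracting group means, the arrays sharing a number had correlations of 0.30, 0.24 and 0.30. Cultures sharing a number also shared their sex type, so these values alone do not show pairing. The labels do not say that cultures came from separate embryos, so p-values measure the spread between these samples.

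The members and lists were chosen with earlier results of these data known. Named genes were every called member, the extremes of each class, the active-site, deubiquitinase and ubiquitin receptor subunits, tissue-specific and name-only members, and of each other list the called genes and the 2 of smallest p; the remaining members, Pomp, Usp14, Vcp and Nfe2l2 were named after their values were seen. The fit was tested on simulated data. Alternatives were the replicate block, 2 normalizations, 2 filters, the mean of clusters, array weights, trended and robust variances, leaving out arrays, and, chosen after seeing the data, the cluster at the gene's own chromosome.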

Additional observations from a re-analysis of the deposited data

How the results depend on the processing

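All 14 member calls held with the replicate block (paired analysis: 14 higher, 0 lower; 2232 of all genes), both normalizations, both filters, the mean of clusters, array weights, trended variances and the cluster at the gene's own chromosome, the last chosen after seeing the data; the block changed no member call, while among the other genes named Zfand2a lost its call (adjusted p = 0.0556) and the fibroblast marker Dcn gained one (0.0346). Median centring moved the median of all genes from -0.02 to 0.00. Leaving out 1 array gave 8 to 14 members higher and 0 to 1 lower, and 622 to 1441 genes in all. Leaving out both cultures numbered 1, 2 or 3 gave 92, 467 and 460 genes in all, and 0 and 6 members higher for numbers 1 and 2. Members lower numbered 1 with a stricter filter or array weights and 2 with trended variances (Psmb5, and Psmb3 with the last). Class medians moved beyond the spread between arrays for the lid (0.0231 without both cultures numbered 1), assembly factors (0.11 with a stricter filter, which drops Psmg3, and 0.0143 to 0.1113 without 1 array), regulators (-0.0362 without both numbered 2, and -0.14 to -0.0521 without 1 array) and name-only genes (0.17 without both numbered 2). Some genes near 0 changed sign, with no call on either side. After median centring or quantile normalization Psmb11 was at 0.0022 or 0.0029. Without both cultures numbered 1, Psmb11 was at 0.0888; without both numbered 2, Psma1 was at 0.0028, Psma3 at 0.0043, Psmd7 at 0.0208 and Psmb10 at -0.0188; without both numbered 3, Psma1 was at 0.0225 and Psmg3 at -0.0072. Leaving out 1 replicate gave ranges of -0.1021 to 0.0017 (Psma1), -0.0977 to 0.0663 (Psmb11), -0.0981 to 0.0242 (Psmd7), -0.2524 to 0.0147 (Psmd8), -0.0733 to 0.1113 (Psmg3) and -0.0048 to 0.2177 (Psmb10). Fits without an array use fewer samples; beyond that, the cause of these changes was not tested.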
